A study of Mus musculus with 15 samples.

Results

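The genes described here are 10 genes of the major histocompatibility complex (MHC) and of antigen presentation, chosen by symbol from the 26628 genes of the deposited expression table. They are the class I heavy chain genes H2-K1, H2-D1, H2-Q4 and H2-T23, the class I light chain gene B2m, the peptide transporter gene Tap1, the class II chain genes H2-Aa, H2-Ab1 and H2-Eb1, and Cd74, which encodes the invariant chain of class II. RNA-seq was run on whole cerebellum (Ce) and whole striatum (St) of male Hsd:ICR mice labelled 6 weeks of age, from a line bred for high voluntary wheel running (Hi) and from a non-selected control line (Co). The groups were CeCo, CeHi and StCo with 4 libraries each and StHi with 3. Mice of both lines lived alone with a running wheel until they were sampled on day 7, so no group was without wheel access. Each line was 1 line of a larger breeding experiment, and selection for running cannot be told apart from other differences that had built up between these 2 lines.

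Class I molecules consist of a heavy chain paired with beta-2 microglobulin, the product of B2m, and carry peptides from inside the cell to its surface, where cytotoxic T cells can read them. Tap1 pairs with Tap2 to move those peptides into the endoplasmic reticulum. Class II molecules consist of an alpha and a beta chain that are assembled with the invariant chain Cd74, and they present peptides from material that professional antigen presenting cells have taken up. In the healthy brain, class II is largely a feature of the few macrophages and dendritic cells at its borders, while class I genes are expressed at low levels by many cell types, and interferons raise the expression of both.

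Between 32909386 and 47485536 fragments were counted per library, and 1 fragment was worth 0.841 to 1.30 of the deposited normalized counts. These normalized counts are scaled for library size and not for gene length. At 3 fragments, which is what a count of 0 allows, the detection floor lay between 2.52 and 3.89 normalized counts, for counting error only. The summed markers of cerebellar neurons ran from 213407 to 244845 normalized counts in Ce and from 13366 to 17563 in St. The summed markers of striatal neurons ran from 149605 to 204961 in St and from 8178 to 11387 in Ce, so every library matched its labelled region. The summed markers of choroid plexus, the secretory tissue of the ventricles, ran from 1462 to 116524 in Ce, with both lines spanning nearly that whole range, and from 1282 to 18037 in St.

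A single library stood apart for the genes of interest. CeCo replicate 3 held the highest value of the 8 cerebellar libraries for all 10 genes, whereas it held the highest value for 9.3% of the 15213 genes tested. Among 27 tested genes of the regulators and interferon response, it was the highest for 10. The same library was the highest for 2 of 10 other class I genes and 0 of 4 other class II genes. Among 11 peptide loading and immunoproteasome genes it was the highest for 1. Its summed microglia markers (4815 normalized counts) and its summed choroid plexus markers (36452) lay inside the range of the other cerebellar libraries. Test results that involve CeCo are therefore also given without this library where that matters, a choice made after the values were seen.

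The promoters of several of these genes hold the same short letter sequences, and the stretches that hold them are shown for class I genes, B2m and class II genes. Promoters of 8 of the 10 genes were searched, with start sites from RefSeq (GRCm38.p6), and the other genes were left out of this search. The 250 bases before each start site were searched on both strands for 3 elements. The first was ATTGG or its complement CCAAT (the letters of the Y box bound by NF-Y). The second was TGACG or its complement CGTCA (the core of elements of the X2 and cyclic AMP response type). The third was TTTCACTTC or its complement (letters of an interferon response element). Capitals mark these letters, and each line runs 5′ to 3′ on the strand of the gene. The stretches lie at chr17:34000353-34000443 (minus strand) for H2-K1, chr17:35379458-35379572 (plus strand) for H2-Q4, chr2:122147603-122147644 (plus strand) for B2m, chr17:34287861-34287903 (minus strand) for H2-Aa and chr17:34305802-34305842 (plus strand) for H2-Eb1.
H2-K1: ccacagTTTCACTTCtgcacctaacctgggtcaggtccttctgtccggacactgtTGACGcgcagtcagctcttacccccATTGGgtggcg
H2-Q4: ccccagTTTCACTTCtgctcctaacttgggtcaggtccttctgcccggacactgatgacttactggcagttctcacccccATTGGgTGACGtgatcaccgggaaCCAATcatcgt
B2m: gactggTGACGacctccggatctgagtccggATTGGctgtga
H2-Aa: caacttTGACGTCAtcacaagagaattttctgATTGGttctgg
H2-Eb1: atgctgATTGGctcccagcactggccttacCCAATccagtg

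ATTGG or its complement was found in all 8 promoters searched and in 33.8% of 32851 mouse promoter windows of the same length. TGACG was found in 6 of them, the exceptions being H2-Eb1 and H2-T23, and in 17.8% of all windows. In H2-Aa a match on each strand overlaps the other. TTTCACTTC was found in H2-K1, H2-Q4 and H2-D1 and in 0.402% of all windows. These 3 promoters were among only 10 of all windows (0.0304%) that held each of the 3 elements. In the promoter of H2-D1, whose stretch overlaps an untranslated region in another annotation and is not printed, the elements begin 150, 101, 76 and 53 bases before the start site. Such matches describe letters only and say nothing of binding.

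The 10 genes spanned a wide range of levels. Per kilobase of exon, B2m was the most abundant gene in CeCo at 2729 ± 397.5 normalized counts (SD, n = 4), followed by H2-D1 at 1978 ± 151.2. H2-K1 (184.6 ± 45.28 per kilobase) and H2-Q4 (173.9 ± 16.25) came next and did not differ beyond their spread, and both exceeded Cd74 (79.87 ± 41.28) and H2-T23 (63.6 ± 11.93), which again overlapped each other. The class II chains and Tap1 lay at the bottom, with H2-Ab1 at 17.01 ± 2.41, Tap1 at 11.14 ± 1.80, H2-Eb1 at 8.27 ± 7.37 and H2-Aa at 5.92 ± 4.40 per kilobase. In StCo the same scale gave 2421 ± 139 for B2m and 612.8 ± 68.5 for H2-D1, which kept these genes first and second. The class II genes H2-Aa and H2-Eb1 were counted on 1 to 53 and 6 to 42 fragments per library and did not reach a CPM of 1 in 3 libraries, so 8 of the 10 genes entered the tests of the 15213 genes that did.

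**Figure D1:**
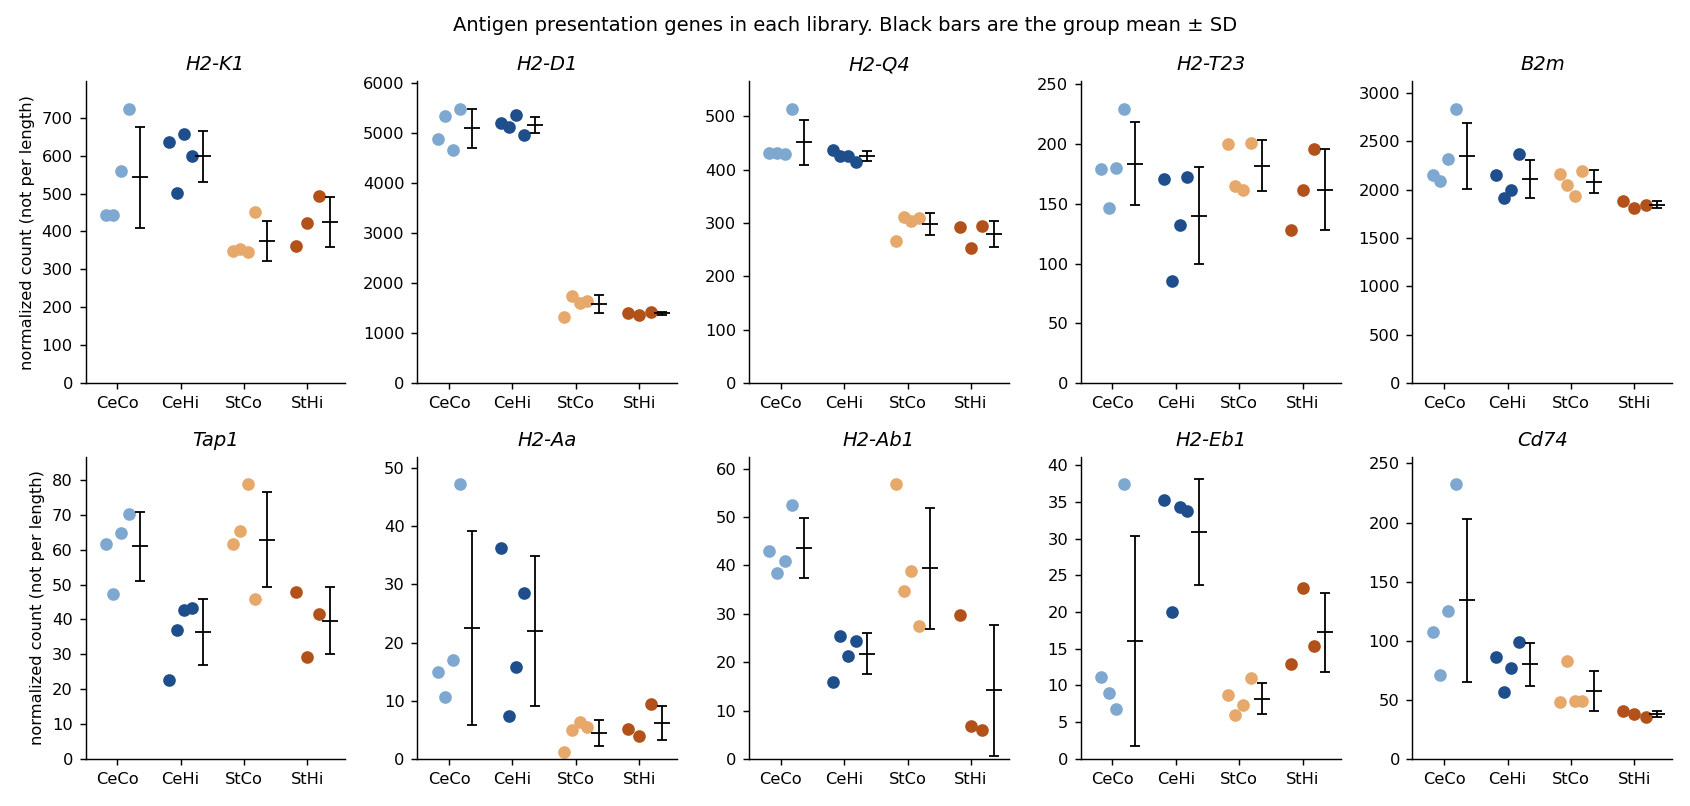
Normalized counts (not per length, linear axes from 0) of the 10 genes in each of the 15 libraries, by group, with the group mean and SD in black (n = 4, and n = 3 for StHi). H2-D1 separates the regions, H2-Ab1 and Tap1 are lower in CeHi than in CeCo without overlap, and the highest point of CeCo is replicate 3 in every panel.

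The comparison of regions asked where antigen presentation genes were more abundant. The class I heavy chain genes H2-D1, H2-K1 and H2-Q4 and the invariant chain gene Cd74 were lower in St than in Ce in both lines, whereas the heavy chain gene H2-T23 did not pass the test. H2-D1, the gene of a classical class I heavy chain (chr17:35262730-35267499, GRCm38, plus strand), read 4891, 5356, 4665 and 5497 normalized counts in CeCo and 1331, 1746, 1608 and 1637 in StCo. It read 5208, 5125, 5358 and 4968 in CeHi and 1402, 1368 and 1433 in StHi. Every Ce library was thus far above every St library. The log2 difference, St minus Ce, was -1.69 (SE 0.072, 0.309-fold, adjusted p = 1.05e-12) in the control line and -1.88 (SE 0.078, 0.272-fold, adjusted p = 1.09e-12) in the selected line, from limma with Benjamini-Hochberg adjustment over all genes tested.

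H2-K1, another classical heavy chain gene (chr17:33996017-34000347, minus strand), was also lower in St. It read 443, 443, 560 and 724 in CeCo against 348, 354, 345 and 453 in StCo, and the ranges touched. It read 635, 502, 656 and 599 in CeHi against 361, 423 and 493 in StHi, which did not overlap. Its log2 differences were -0.51 (SE 0.150, adjusted p = 0.00585) and -0.49 (SE 0.162, adjusted p = 0.0128). Without StHi replicate 0, the difference in the selected line was -0.38 with an adjusted p of 0.073.

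H2-Q4, a class Ib gene of the Q region (chr17:35379617-35385290, plus strand), was lower in St without overlap in either line. It read 431, 431, 430 and 515 in CeCo, 267, 311, 305 and 310 in StCo, 436, 425, 426 and 415 in CeHi, and 292, 252 and 294 in StHi. The log2 differences were -0.60 (SE 0.084, adjusted p = 6.04e-06) and -0.61 (SE 0.091, adjusted p = 1.42e-05). Its value is less certain than the others, since 36.4% of its 50-base stretches also occur in transcripts of other genes, against 9.63% for H2-K1 and 12.8% for H2-D1, and it overlaps Gm11131 on the opposite strand.

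Cd74 (chromosome 18) was also lower in St. It read 107, 71.3, 125 and 232 in CeCo, 48.1, 83.1, 49.4 and 49.4 in StCo, 86.6, 57.0, 76.9 and 99.3 in CeHi, and 40.2, 37.9 and 35.6 in StHi. The groups overlapped in the control line, through StCo replicate 1, and not in the selected line. The log2 differences were -1.11 (SE 0.285, adjusted p = 0.00207) and -1.03 (SE 0.308, adjusted p = 0.00694). Without CeCo replicate 3 the difference in the control line was -0.81.

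These 4 genes were the ones that passed the test in each line, all 4 lower in St, out of 8 tested. A regional difference was common in these tissues, with 74.8% of all genes called in the control line (38.1% lower in St) and 70.5% in the selected line (35.6% lower), so a count of 4 of 8 does not stand out from the whole table. The median log2 difference of the 8 genes was -0.35 in the control line and -0.55 in the selected line, and that of all genes tested was -0.02 and -0.01. In whole tissue, fewer cells of a type and less RNA per cell cannot be told apart. Summed microglia markers ran the other way, from 4513 to 5719 normalized counts in Ce and from 17114 to 18854 in St. Their part in these results was not tested.

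H2-T23, Tap1, B2m and H2-Ab1 did not pass the test between regions. H2-T23, which encodes the class Ib molecule Qa-1 (chr17:36029773-36032855, minus strand), differed by -0.00 (95% confidence interval -0.43 to 0.43) in the control line and 0.24 (-0.22 to 0.70) in the selected line. The interval of Tap1 (chr17:34187553-34197225, plus strand) ran from -0.46 to 0.53 and from -0.40 to 0.67. B2m (chr2:122147686-122153083, plus strand) gave -0.16 (adjusted p = 0.0935) and -0.19 (adjusted p = 0.0812). In the control line the library numbers were taken to pair the 2 regions. With the replicate number as a block over all groups, the B2m difference of -0.16 passed the test (adjusted p = 0.0227). The difference also passed with blocks within each line (adjusted p = 0.042) and without CeCo replicate 1 (-0.22, adjusted p = 0.0363). Without CeCo replicate 3 it was -0.07 (adjusted p = 0.373). In the selected line B2m passed without CeCo replicate 3 (adjusted p = 0.0243), without CeHi replicate 1 (adjusted p = 0.0451) and with its own groups alone (adjusted p = 0.0497). H2-Ab1 gave -0.18 (adjusted p = 0.671) in the control line and -0.92 (adjusted p = 0.0525) in the selected line, where it passed without StHi replicate 0 (adjusted p = 0.000136) or CeHi replicate 0 (adjusted p = 0.0426), with quality weights (adjusted p = 0.00515) and with quantile normalization (-1.77, adjusted p = 0.00328). Of the 10 genes, 3 did not overlap between regions in the control line (H2-D1, H2-Q4 and H2-Aa, background 69.9%) and 5 in the selected line (H2-K1, H2-D1, H2-Q4, B2m and Cd74, background 68.3%).

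H2-Aa, the alpha chain of the class II molecule I-A (chr17:34282744-34287823, minus strand), was near the floor in St. It read 14.9, 10.7, 17.1 and 47.2 in CeCo and 1.23, 4.95, 6.30 and 5.48 in StCo, with 36.2, 7.38, 15.7 and 28.5 in CeHi and 5.19, 3.88 and 9.50 in StHi. As an alternative, when all 21831 genes with any count were fitted, H2-Aa was lower in St by a log2 difference of -2.02 (SE 0.519, adjusted p = 0.00269, background 60.3%) in the control line and -1.56 (SE 0.561, adjusted p = 0.0257, background 56%) in the selected line. The first passed with each of the 15 libraries left out in turn and the second in 11 of those 15 fits. In the same fit H2-Eb1 gave -0.63 (adjusted p = 0.188) and -0.83 (adjusted p = 0.116) and was called in neither line.

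**Figure D2:**
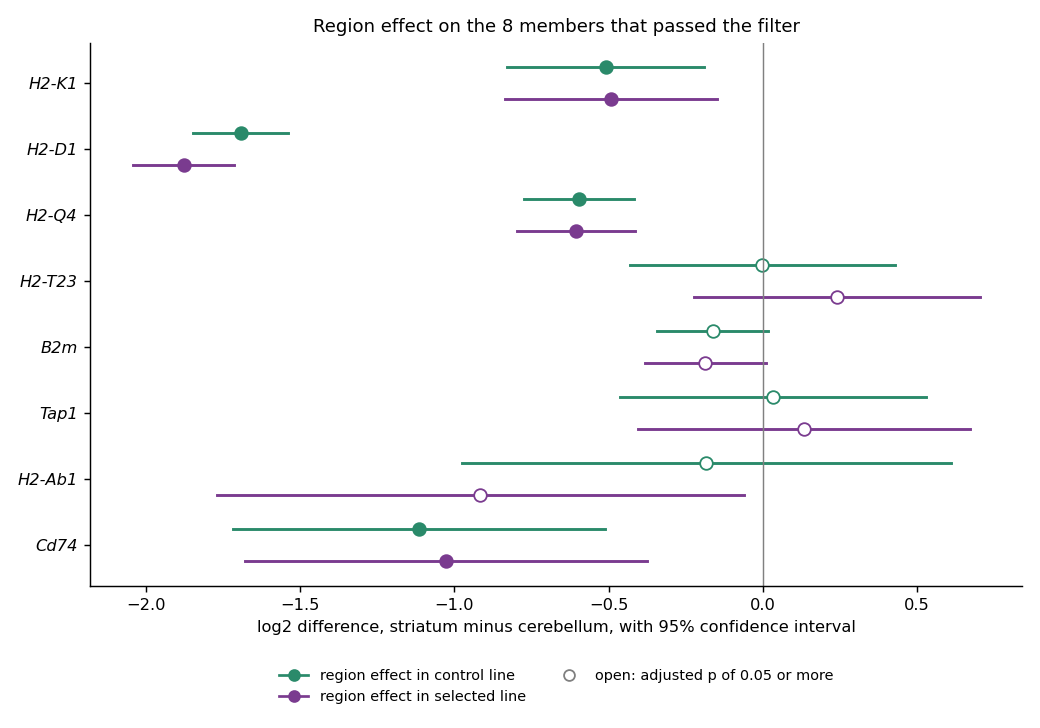
Log2 difference of normalized counts, St minus Ce, with its 95% confidence interval for the 8 genes that passed the filter, in the control line and in the selected line. Filled points (adjusted p under 0.05, limma) are H2-K1, H2-D1, H2-Q4 and Cd74 in both lines.

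The comparison of lines asked which of the genes differed between Hi and Co within a region. In Ce, no gene of the 8 tested passed an adjusted p of 0.05 in limma, with 5.86% of all genes called. At an unadjusted p under 0.05 there were 3 (H2-Ab1, Cd74 and Tap1), with 19.6% of all genes at that level. On the recovered fragments, edgeR called 0 of the 8 and DESeq2 called 1, Tap1. In St, H2-Ab1 alone passed, lower in Hi, with 2.68% of all genes called (1.1% lower). No gene passed for the line-by-region interaction, where 0 of the 8 had an unadjusted p under 0.05 in limma, edgeR or DESeq2, against 9.54% of all genes in limma, and 0.526% of all genes were called by limma.

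H2-Ab1, the beta chain of I-A (chr17:34257689-34269419, plus strand), showed the largest line difference of the 8. It passed the filter on low values only through control libraries, reaching a CPM of 1 in 3 CeCo and 1 StCo libraries and in 0 of the CeHi and StHi libraries, so its calls between the lines are a description and give no support of their own. In St it read 56.8, 34.6, 38.9 and 27.4 in StCo and 29.8, 6.80 and 5.94 in StHi. The groups overlapped through StHi replicate 0, which lay above the lowest StCo library, and the other 2 StHi libraries rested on 7 and 5 fragments. The log2 difference, Hi minus Co, was -1.72 (SE 0.404, 95% confidence interval -2.57 to -0.86, 0.304-fold, adjusted p = 0.0283). The call was lost in edgeR (-1.52, adjusted p = 0.0641), with the St groups fitted alone (adjusted p = 0.152) and without StCo replicate 0, StCo replicate 1, StHi replicate 1 or StHi replicate 2, where the adjusted p ran from 0.0587 to 0.152.

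In Ce, H2-Ab1 read 42.9, 38.3, 41.0 and 52.5 in CeCo and 16.0, 25.3, 21.3 and 24.3 in CeHi. All 4 CeHi libraries lay below all 4 CeCo libraries. The log2 difference was -0.99 (SE 0.374, 0.505-fold) and did not pass in limma (adjusted p = 0.143), while it passed with the Ce groups fitted alone (adjusted p = 0.0166). The line differences of the 2 regions did not differ detectably, the interaction being 0.73 (95% confidence interval -0.43 to 1.90).

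Tap1 showed a like pattern. It read 61.5, 47.3, 64.8 and 70.4 in CeCo and 22.7, 36.9, 42.6 and 43.3 in CeHi, again with no overlap. The log2 difference in Ce was -0.76 (SE 0.235, 0.592-fold, adjusted p = 0.0703), and it passed with sample quality weights (adjusted p = 0.0275) and in DESeq2 (adjusted p = 0.0397). In St it read 61.7, 65.3, 78.8 and 45.7 in StCo and 48.0, 29.1 and 41.6 in StHi, which overlapped, with a log2 difference of -0.66 (SE 0.254, adjusted p = 0.224).

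The libraries are separate samples by their labels, and the p-values measure the spread between these samples only. Averaged over the 2 regions, a contrast that was added after these values were seen, H2-Ab1 and Tap1 were lower in Hi. The log2 differences were -1.35 for H2-Ab1 (SE 0.275, 0.392-fold, adjusted p = 0.00489) and -0.71 for Tap1 (SE 0.173, 0.613-fold, adjusted p = 0.0163), 2 of 8 against 8.69% of all genes called (3.88% lower). Of these, H2-Ab1 had entered the test only through control libraries. H2-Ab1 passed with each library left out, and Tap1 did so except without StHi replicate 1 (-0.61, adjusted p = 0.0515). Without CeCo replicate 3 the values were -1.31 (adjusted p = 0.0124) and -0.68 (adjusted p = 0.0363). Ce and St libraries of the same number deviated together in the control line, so the regions do not give independent samples there and these p-values can be too small.

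Cd74 was lower in Hi in St without overlap, all 3 StHi libraries lying under the lowest StCo library of 48.1. The log2 difference of -0.55 (SE 0.308, adjusted p = 0.474) did not pass the test. In Ce it was -0.63 (SE 0.285, adjusted p = 0.229), and -0.33 (adjusted p = 0.504) without CeCo replicate 3. B2m read 2160, 2045, 1930 and 2193 in StCo and 1883, 1814 and 1837 in StHi, which did not overlap either, with a log2 difference of -0.17 (SE 0.092, adjusted p = 0.443). Its values in Ce were 2148, 2087, 2312 and 2839 in CeCo and 2154, 1919, 1997 and 2366 in CeHi, which overlapped.

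The class I heavy chains gave small differences between lines. The log2 differences in Ce and St were 0.16 and 0.18 for H2-K1, 0.02 and -0.16 for H2-D1, and -0.08 and -0.09 for H2-Q4. The confidence intervals of these 6 values reached no further than 0.53 above and -0.33 below 0. H2-T23 read 179, 146, 180 and 230 in CeCo, 171, 85.4, 132 and 172 in CeHi, 199.96, 165, 162 and 201 in StCo, and 128, 161 and 196 in StHi. The lines overlapped in both regions. Its log2 differences were -0.42 (-0.85 to 0.01) in Ce and -0.18 (-0.64 to 0.28) in St.

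**Figure D3:**
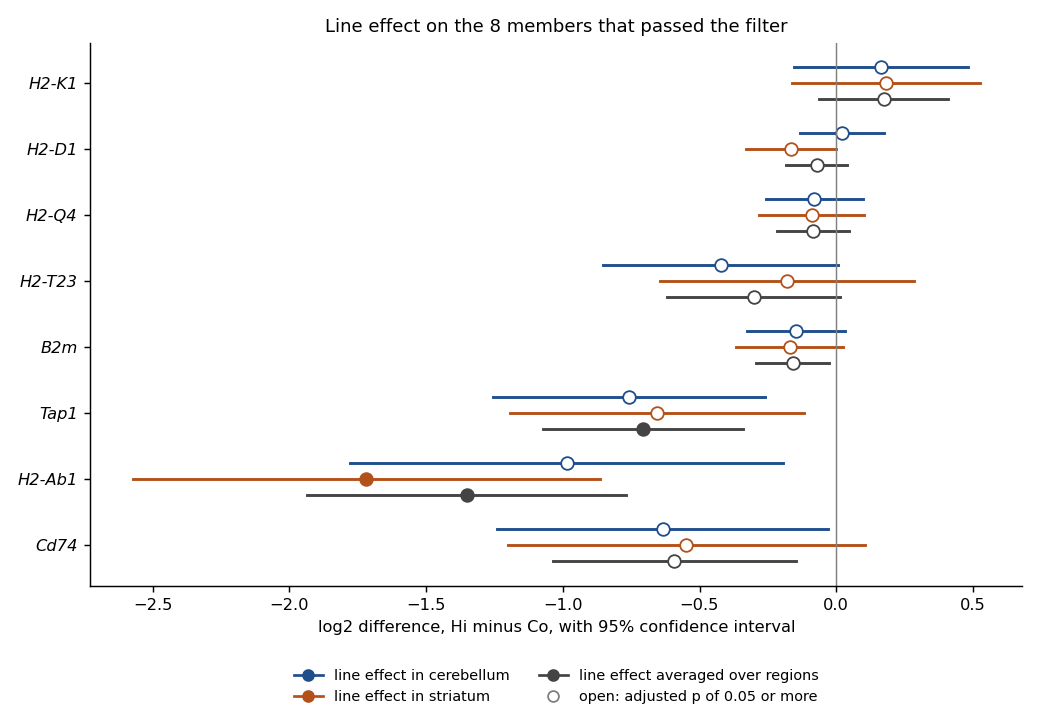
Log2 difference of normalized counts, Hi minus Co, with its 95% confidence interval for the 8 genes that passed the filter, in Ce, in St and averaged over both regions. Filled points (adjusted p under 0.05, limma) are H2-Ab1 in St and H2-Ab1 and Tap1 in the average, and no point in Ce is filled.

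H2-Eb1, the beta chain of the class II molecule I-E (chr17:34305867-34316674, plus strand), went the other way from its neighbour H2-Ab1. It read 11.2, 8.92, 6.83 and 37.4 in CeCo and 35.3, 20.04, 34.3 and 33.8 in CeHi. CeCo replicate 3 alone kept these groups from separating. In St it read 8.64, 5.93, 7.35 and 11.0 in StCo and 12.97, 23.3 and 15.4 in StHi, without overlap. In the fit of 21831 genes the log2 differences were 1.17 in Ce (SE 0.399, adjusted p = 0.124) and 0.97 in St (SE 0.431, adjusted p = 0.337), with 4.08% and 2.21% of genes called in that fit. Without CeCo replicate 3 the difference in Ce was 1.66 and passed (adjusted p = 0.00437), the only 1 of the 15 fits with a library left out in which it did.

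The average over regions of H2-Eb1 was 1.07 (SE 0.293, adjusted p = 0.0385, with 6.34% of genes called in that fit). It was 1.32 (adjusted p = 0.00118) without CeCo replicate 3 and passed in 4 of the 15 fits that leave out a library. The 10 genes thus held 2 in Ce (H2-Ab1 and Tap1, both lower in Hi, background 13.3%) and 3 in St (H2-Eb1 higher, B2m and Cd74 lower, background 13.1%) whose lines did not overlap.

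The pattern of H2-Eb1 over the libraries was shared by H2-Ea-ps, named here after its values were seen, which the annotation lists as a polymorphic pseudogene and which lies close to H2-Eb1 and belongs to the alpha chain of I-E. H2-Ea-ps read 0, 3.57, 0 and 37.4 in CeCo and 40.4, 8.44, 27.8 and 47.6 in CeHi. It read 0 in all 4 StCo libraries and 3.89, 6.80 and 1.19 in StHi. CeCo replicate 3 again sat with the CeHi libraries, and CeHi replicate 1 was the lowest of its group for both genes. Reads of all libraries were aligned to the GRCm38 reference. The part of sequence differences between mice in the counts of these MHC genes was not tested. The log2 difference of H2-Ea-ps in Ce was 2.90 (SE 0.911, adjusted p = 0.0969) and did not pass, while without CeCo replicate 3 it was 4.04 (adjusted p = 0.00101). Its average over regions was 2.51 (adjusted p = 0.0362), and 3.08 (adjusted p = 0.000344) without that library, and it passed in 3 of the 15 fits that leave out a library. H2-Ob, a chain of the class II peptide exchange regulator and also under the filter, was lower in CeHi by a log2 difference of -2.05 (SE 0.508, adjusted p = 0.0302). That difference passed in 10 of the 15 fits that leave out a library. The average of H2-Ob over regions was -1.64 (adjusted p = 0.0134) and passed in all 15. It rested on 8, 17, 18 and 5 fragments in CeCo and on 3, 3, 2 and 0 in CeHi. All CeHi counts were thus at or under the floor of 3 fragments, and the size of the difference is uncertain. H2-Q7, a class I gene under the filter, was also lower in Hi in the average over regions (-1.26, adjusted p = 0.0424). Of its 50-base stretches, 26.5% occur in other genes.

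A different set of libraries stood out among class Ib genes of the T region. H2-T10 read 434 in CeHi replicate 1 and 532 in StHi replicate 0, and between 69.5 and 116 in the other 13 libraries. H2-T22, with which H2-T10 shares 31.7% of its 50-base stretches, was lowest in the same 2 libraries of its region, at 230 and 211. H2-T23 was also lowest there, with 85.4 in CeHi replicate 1 and 128 in StHi replicate 0 against 132 to 230 and 161 to 201 in the other libraries of each region. H2-Bl read 124 in CeHi replicate 1 against 254 to 298 in the other Ce libraries, but 33.7 in StHi replicate 0, inside the range of 23.8 to 75.7 over the St libraries. H2-T24 was also lowest of its region in CeHi replicate 1 and StHi replicate 0, at 78.1 and 79.1. These genes were singled out after their values were seen. H2-T10 and H2-T22 share many stretches, so the share of reads placed on each is uncertain. The 50-base stretches also found in other genes were 14.5% for H2-T23, 9.55% for H2-Bl and 3.17% for H2-T24. The part of read placement in this pattern was not tested. Without CeHi replicate 1 the log2 line difference of H2-T23 in Ce was -0.20 (adjusted p = 0.551), against -0.42 with it.

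**Figure D4:**
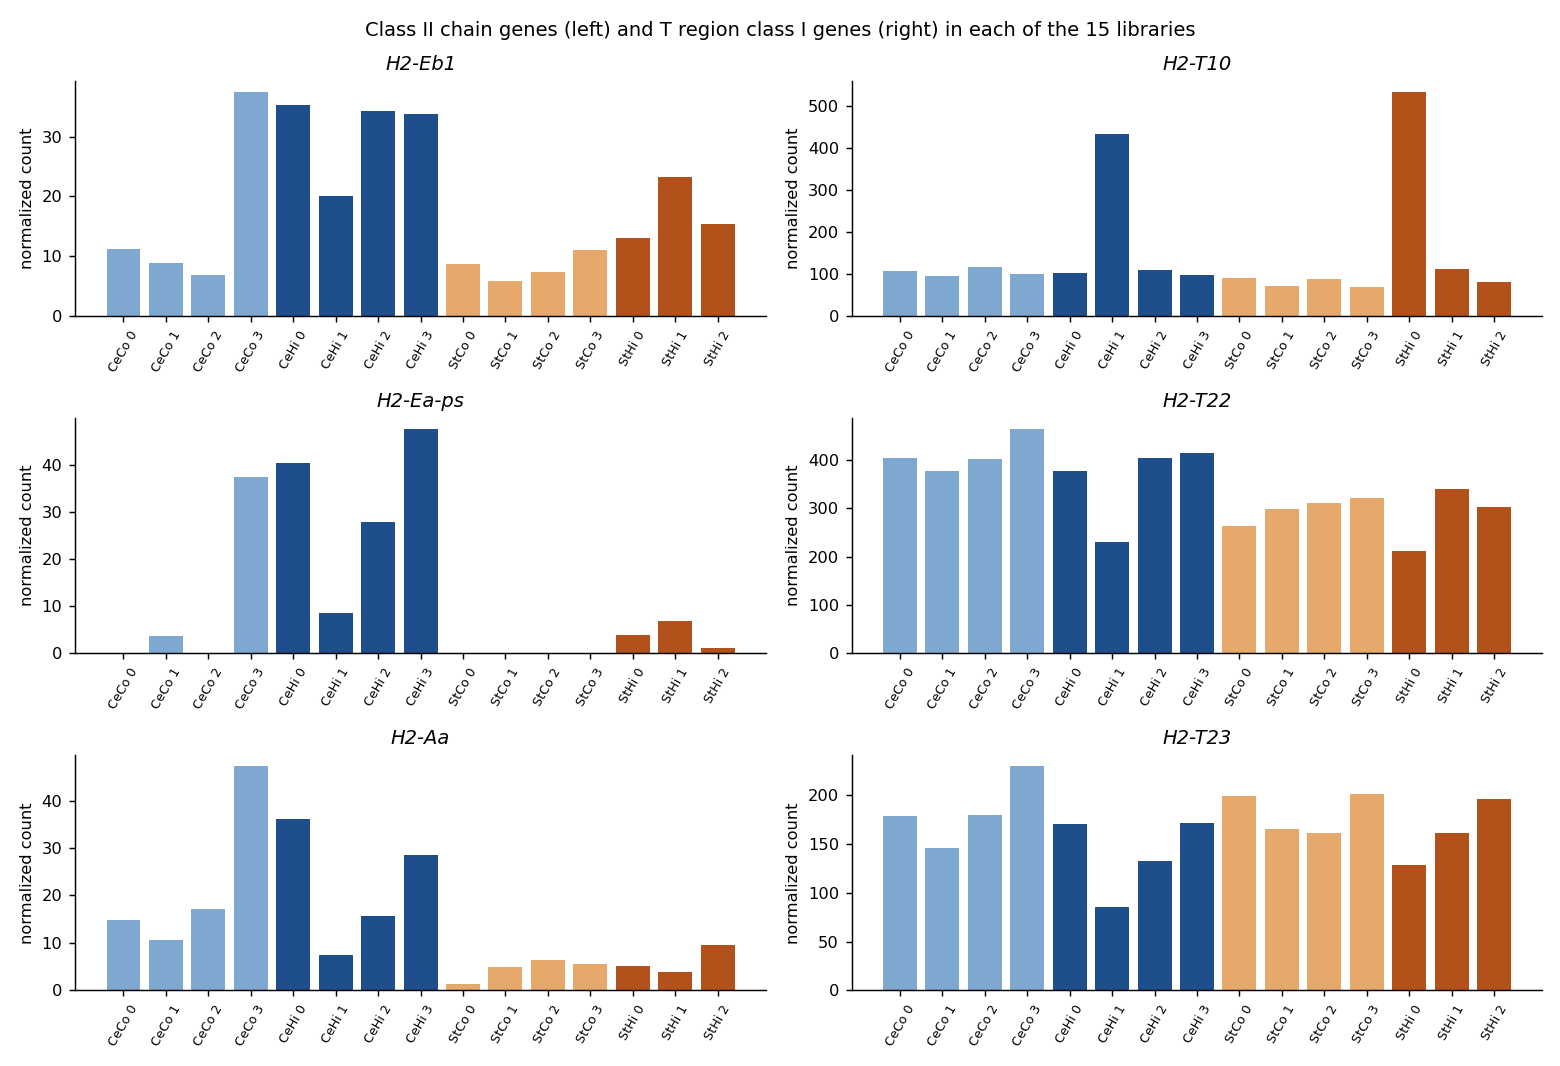
Normalized counts (linear axes from 0) of 3 class II chain genes and 3 class I genes of the T region in each of the 15 libraries. H2-Eb1 and H2-Ea-ps are high in CeHi and in CeCo replicate 3, and H2-T10 is high only in CeHi replicate 1 and StHi replicate 0, where H2-T22 and H2-T23 are lowest for their region.

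Beyond the 10 genes, few others of the pathway passed the test between the lines. Of 10 tested genes among other class I and class I-like genes, 4 among other class II genes and 11 among the peptide loading and immunoproteasome genes, 0 passed in Ce, in St or for the interaction. Their median log2 differences in Ce were 0.06, 0.02 and 0.04, beside 0.00 for all genes. Of all genes tested, 5.86% were called in Ce, 2.68% in St and 0.526% for the interaction. For lists this short, a count of 0 is near those shares. Tap2, the partner of Tap1, had a log2 difference of -0.43 in Ce (SE 0.126, adjusted p = 0.0526) and -0.37 in St (SE 0.136, adjusted p = 0.199), and was lower in Hi in the average over regions (-0.40, SE 0.093, adjusted p = 0.0116).

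Of 27 tested regulators and interferon response genes, 2 were lower in CeHi and 1 in StHi, beside 5.86% and 2.68% of all genes called in either direction, so these counts are near the background. Ifit2, an interferon-induced gene, was lower in both, with log2 differences of -1.16 in Ce (SE 0.184, adjusted p = 0.000893) and -1.19 in St (SE 0.199, adjusted p = 0.00274). It read 359 to 650 in CeCo against 167 to 246 in CeHi, and 600 to 1002 in StCo against 300 to 360 in StHi. Irf1, a transcription factor that acts on class I and interferon genes, was lower in CeHi by -0.61 (SE 0.155, adjusted p = 0.0278) and gave -0.23 (SE 0.168, adjusted p = 0.632) in St. In the average over regions 3 of the 27 were lower in Hi, namely Ifit2 (-1.17, adjusted p = 3.21e-05), Irf1 (-0.42, adjusted p = 0.0308) and Nfyb, a subunit of NF-Y (-0.13, adjusted p = 0.0441). That contrast called 8.69% of all genes (3.88% lower), and its p-values can be too small, as stated above. Ifit1 and Ifit3, relatives of Ifit2, gave -0.63 (adjusted p = 0.262) and 1.01 (adjusted p = 0.474) in Ce.

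Between regions, many genes of these lists differed, as did most genes of the table. In the control line 2 of the 10 other class I genes were higher and 6 lower in St, 3 of the 4 other class II genes were higher and 1 lower, 4 of the 11 loading genes were higher and 3 lower, and 4 of the 27 regulators and interferon genes were higher and 13 lower. Of genes chosen after their values were seen, H2-DMa, which helps load class II, was higher in St by 2.23 log2 units and Ctss, the protease that trims the invariant chain, by 1.43, whereas Cd74 itself was lower. Ifi30, a lysosomal thiol reductase, was lower by -0.95. Among class I-like genes, Cd1d1 was higher by 1.54 and Fcgrt, the neonatal Fc receptor chain, lower by -1.09.

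Genes around the MHC genes on chromosome 17 were called between the lines about as often as all genes in Ce, where 5.86% of all genes were called, while 2.68% were called in St. Between 33996017 and 36032855, the 73 tested genes that are in none of the lists above gave 4 calls in Ce (5.48%, 1 higher and 3 lower), 1 in St (1.37%, higher) and 0 for the interaction. H2-Ke6, a steroid dehydrogenase gene with no part in presentation, was higher in Hi in both regions, with log2 differences of 0.56 (Ce) and 0.72 (St). The 3 genes lower in CeHi were Brd2 (-0.21), Ng23 (-0.62) and Abhd16a (-0.21), named after their values were seen. The median log2 difference of the 73 genes was -0.03 in Ce and -0.01 in St.

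**Figure D5:**
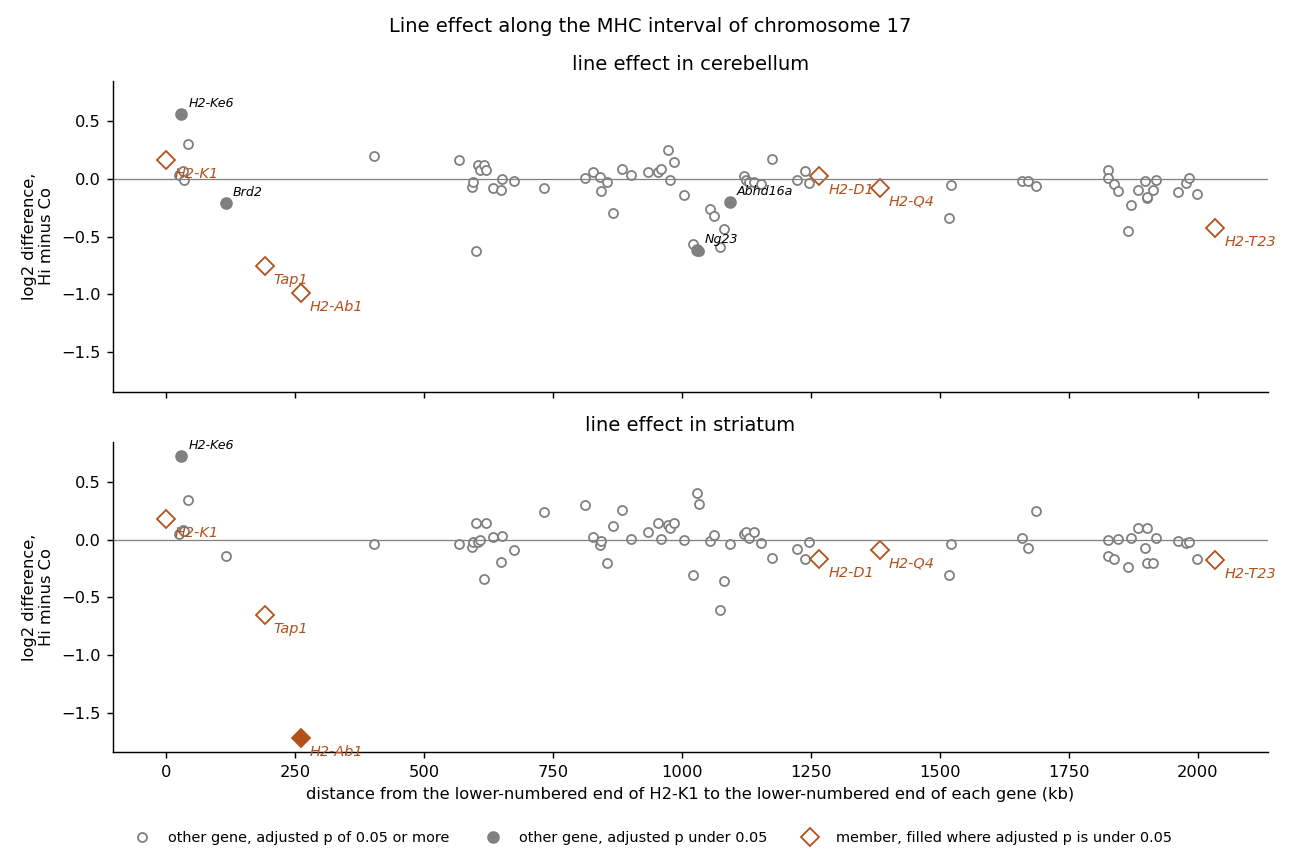
Log2 difference of normalized counts, Hi minus Co, in Ce and in St for the 6 tested genes of interest on that chromosome (diamonds) and 73 tested genes in none of the lists (circles) against distance in kb along chromosome 17 from the lower-numbered end of H2-K1. Tap1 and H2-Ab1 lie furthest below 0 in both regions, with H2-Ab1 at -0.99 in Ce and -1.72 in St.

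Across the libraries, some of the 8 tested genes moved together once the mean of each region had been subtracted. As a description over 15 libraries that share their groups, Pearson's r of log2 values was 0.849 for B2m and Cd74, 0.791 for H2-Ab1 and Tap1, 0.763 for H2-T23 and B2m, and 0.706 for H2-D1 and H2-Q4. H2-K1 ran against H2-Ab1 with an r of -0.513. The tested genes most like B2m were Rtp4 (0.898), Igtp (0.866) and 6530402F18Rik (0.853), and those most like Cd74 were Thbd (0.857), Rtp4 (0.853) and B2m (0.849). CeCo replicate 3 held the highest Ce value for every gene named in this paragraph. No correlation was calculated without it, and its part in these values was not tested.

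Markers of the cells that could carry these transcripts were summed in each library. Over 20 comparisons of 10 marker lists between the lines, the lowest adjusted p of an exact two-sided permutation test was 0.343, and the smallest raw p these group sizes can give is 0.0286 in Ce and 0.0571 in St. Summed microglia markers in Hi were 1.03 times those of Co in Ce and 0.978 times in St, and those of border-associated macrophages 1.01 and 1.21 times. Larger ratios were 4.97 for choroid plexus and 1.43 for red blood cells in St (raw exact permutation p = 0.0571 each), 1.48 for red blood cells in Ce (p = 0.314), 1.23 for striatal neurons in Ce (p = 0.0286) and 1.18 for cerebellar neurons in St (p = 0.0857). The choroid plexus ratio rested mainly on StHi replicate 2 (18037). StHi replicates 0 and 1 read 1791 and 3443, against 1282 to 1838 in StCo. Summed endothelial markers ran from 6809 to 8432 and those of border-associated macrophages from 593.9 to 998.7 over all libraries. Within the microglia list, all 9 markers were tested and Fcrls (1.24 and 1.56 log2 units) and Siglech (0.81 and 0.67) were higher in Hi in both regions. Within the border macrophage list, Cbr2 was lower (-1.23) and Stab1 higher (0.54) in StHi. The T and NK cell markers Cd3e, Cd3d, Cd8a, Cd8b1 and Nkg7 stayed at 3 fragments or fewer in every library. The sum of the dendritic cell list was 2080 to 2616 in Ce and 332.8 to 467 in St, with only 2 of its 7 markers, Flt3 and Zbtb46, above the filter and Ccr7 at the floor in Ce. The summed T and NK cell list reached 1429 to 2401 in St, where 1 of its 7 markers, Cd4, was above the filter. The other 6 stayed at 3 fragments or fewer in St, so this sum is almost all Cd4. The part of these cell types in the line differences was not tested.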

How the data were processed

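RNA from 15 samples was sequenced by the authors, who aligned reads to GRCm38 with TopHat2 and normalized them with Cuffnorm 2.2.1, per the labels and the study's methods. The deposited values are a signal per gene, fragment counts divided by a size factor of each sample, and not per length although the table is named for FPKM. In low values, 99.5% to 99.8% were whole multiples of 1 fragment (tolerance 0.02), and these fragments were recovered for edgeR and DESeq2. The check of whole fragments accepted 10 of the 15 columns, so those 2 tests are alternatives only. Strand of the libraries is not given in the sources used here. A further StHi sample that the authors removed was not analysed here.

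Genes with a CPM of at least 1 in 3 samples (15213 of 26628) were tested with limma 3.58.1 (trend, robust) in R 4.3.3 on log2 of TMM-scaled values plus 1, with 4 group means and Benjamini-Hochberg adjustment over all genes tested, a gene being called at an adjusted p under 0.05. Fold changes are on this scale, which understates changes of low genes. Alternatives used other pseudocounts (0.1 and 5), no filter, other scalings, sample quality weights, edgeR 4.0.16, DESeq2 1.42.0, a replicate block, own groups alone and each sample left out. The script was tested on simulated data. Same-numbered CeCo and StCo samples deviated together (residual correlations of 0.171 to 0.278, 4 of 4 pairs over 0.1), so numbers were taken to pair regions in the control line, and in no other comparison. This pairing is inferred and not labelled. Same-numbered samples of different lines, which are different mice, reached 0.183 in Ce and 0.196 in St. The replicate block tied samples of all groups by number, and the block within line tied only those of each line. The rule named all 10 members, the list genes with an adjusted p under 0.05 between lines or for the interaction (at most 6 per list and comparison) and the 3 genes most correlated with B2m and with Cd74. H2-Aa and H2-Eb1 were to be given by value only, and their tests come from the alternative without the filter. Tap2, Ifit1, Ifit3, H2-Ob, H2-Q7 and the genes named between regions were chosen after their values were seen. Members and lists were chosen with earlier results of these data known, and the average over regions was added after values were seen. Positions and exon lengths come from GENCODE M21 on GRCm38. Figures were drawn with matplotlib 3.10.9. 1 marker gene and the list that holds it are not reported here.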

Additional observations from a re-analysis of the deposited data

Results flagged for a closer look

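In groups of 4, a library was singled out when its gap to the nearest other library, as a share of the range of the group, exceeded Dixon's critical value. Chance alone gives this in about 1 in 20 groups, and it was met in 6 of 30. CeCo replicate 3 was high for H2-Q4, at 514.758 normalized counts against 430 to 431 in the other libraries, and for H2-Eb1, at 37.4045 against 6.83 to 11.2. In StCo, H2-K1 stood at 452.503 in replicate 3 against 345 to 354, H2-Q4 at 266.61 in replicate 0 against 305 to 311, and Cd74 at 83.0829 in replicate 1 against 48.1 to 49.4. In CeHi, H2-Eb1 was low in replicate 1, at 20.043 against 33.8 to 35.3.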

How the results depend on the processing

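The count of genes called in Ce went from 0 to 1 with quality weights, DESeq2 or own groups alone, and ran from 0 to 1 with a library left out. In St it went from 1 to 0 in edgeR and with own groups alone, and ran from 0 to 1 with a library left out. For the average over regions it ran from 1 to 3 with a library left out. Over all genes, DESeq2 called 1389 in Ce (891 in limma), 709 in St (407) and 277 for the interaction (80), and quality weights called 757 in St and 184 for the interaction. The replicate block within line called 53 for the interaction. Without 1 library, St gave 272 to 479 calls and the interaction 45 to 123.

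Small log2 differences, none of them called, changed sign. With quantile normalization the interaction was 0.039 for Cd74 and 0.087 for Tap1, and Tap1 between regions was -0.238 (control line) and -0.325 (selected line). Quality weights gave -0.010 for Tap1 in the control line, and median-of-ratios scaling 0.009 for H2-T23. With the replicate block, which ties samples of all groups by number, the interaction was -0.015 for H2-Q4 and -0.036 for B2m (-0.035 within line). The regional difference of B2m in the control line then passed (-0.163, adjusted p = 0.0227, and 0.042 within line), with no other call of the 8 genes changed. With a library left out, the interaction ran from -0.132 to 0.132 for H2-K1, -0.060 to 0.075 for H2-Q4, -0.031 to 0.120 for B2m, -0.345 to 0.221 for Cd74 and -0.299 to 0.105 for Tap1. The line difference of H2-D1 in Ce ran from -0.023 to 0.051. Between regions in the control line H2-T23 ran from -0.107 to 0.107 and Tap1 from -0.088 to 0.174, and in the selected line Tap1 from -0.073 to 0.332. The cause was not tested. Groups held 3 or 4 libraries, and H2-Ab1 rested on 5 to 59 fragments per library. The effect of depth on the calls was not tested.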
